A study of Mus musculus with 90 samples.

Results

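Slow (type I) muscle fibres contract slowly and resist fatigue, and they build their sarcomere from isoforms of the contractile proteins that differ from those of fast fibres. A set of 7 such genes was followed, by their Entrez gene identifiers, among the 20414 genes of the expression table: Myh7 (140781), the slow and beta cardiac myosin heavy chain, Myl2 (17906), the regulatory light chain, Myl3 (17897), the essential light chain, Tnnc1 (21924), Tnnt1 (21955) and Tnni1 (21952), the slow isoforms of troponin C, T and I, and Tpm3 (59069), the slow alpha tropomyosin gene. All 7 of 7 were found. They were chosen with their values in these libraries known, so their own levels and differences are given as a description, without a test.

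RNA was sequenced from 15 tissues of female mice in estrus or in diestrus, labelled as C57BL/6 and 10 weeks old (the methods of the study name the J substrain and a younger age). The phase of each mouse was read from a methylene blue stain of vaginal secretions, followed daily. The study also measured serum estrogen and progesterone as an aid. Each tissue was represented by 3 libraries in each phase, 90 in all, and the mice carried no transgene or treatment. Levels are FPKM, a unit that divides the fragments of a gene by its length and by the total of the library, so that levels can be set beside each other between genes.

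Myosin is the motor of contraction, and its light chains modulate it. Calcium binds troponin C, troponin I holds the thin filament off in its absence, and troponin T ties both to tropomyosin. Several of the slow isoforms serve the ventricle of the heart as well: Myl2, Myl3 and Tnnc1 are the ventricular isoforms there, whereas the adult mouse ventricle uses Myh6, Tnnt2 and Tnni3 in place of Myh7, Tnnt1 and Tnni1. Tpm3 also gives rise to cytoskeletal tropomyosins made in many cell types.

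The stretch of 150 bases before the transcription start is shown for the 6 members whose RefSeq start lay within 32 bases of the principal GENCODE start (build GRCm38.p6). Whether these stretches bear on the levels in these libraries was not tested. The stretches are Myh7 at chr14:54994627-54994776 (- strand), Tnnc1 at chr14:31208162-31208311 (+ strand), Tnnt1 at chr7:4515976-4516125 (- strand), Tnni1 at chr1:135799271-135799420 (+ strand), Myl3 at chr9:110763528-110763677 (+ strand), Tpm3 at chr3:90072501-90072650 (+ strand). For Myl2 the RefSeq start lay 7762 bases from the principal start, and no stretch is printed. Lower case marks the reference sequence, 5′ to 3′ on the strand of the gene, and capitals mark matches, on either strand, to 6 short motifs: the MEF2 core (TAAAAATA), the MCAT element (letters CATTCC), an E-box (letters CAGCTG), the TATA box (letters TATAAA), a variant of it (letters TATATA) and the CACC box (letters CCACCC). The motifs did not share bases in any stretch.
Myh7: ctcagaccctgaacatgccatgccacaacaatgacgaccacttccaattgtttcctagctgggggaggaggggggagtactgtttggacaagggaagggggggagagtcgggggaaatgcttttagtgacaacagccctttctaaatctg
Tnnc1: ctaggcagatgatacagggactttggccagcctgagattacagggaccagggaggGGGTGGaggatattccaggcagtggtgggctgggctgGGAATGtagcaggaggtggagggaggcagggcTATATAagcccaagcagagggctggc
Tnnt1: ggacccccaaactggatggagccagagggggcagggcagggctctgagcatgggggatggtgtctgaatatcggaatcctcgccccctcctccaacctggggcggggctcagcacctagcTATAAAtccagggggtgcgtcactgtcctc
Tnni1: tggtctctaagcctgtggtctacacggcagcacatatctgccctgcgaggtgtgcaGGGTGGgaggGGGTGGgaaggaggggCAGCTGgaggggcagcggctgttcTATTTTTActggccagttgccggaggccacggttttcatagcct
Myl3: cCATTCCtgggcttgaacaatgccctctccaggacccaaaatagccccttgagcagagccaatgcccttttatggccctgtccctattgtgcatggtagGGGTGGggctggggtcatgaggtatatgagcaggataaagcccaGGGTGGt
Tpm3: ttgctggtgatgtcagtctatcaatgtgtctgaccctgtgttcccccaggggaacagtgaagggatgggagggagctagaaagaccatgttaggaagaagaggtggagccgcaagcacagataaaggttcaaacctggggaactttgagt
No motif was shared by all 6 stretches. The CACC box matched in Tnnc1, Tnni1 and Myl3, and in 19.7% of all 32817 stretches of this length. MCAT matched in Tnnc1 and Myl3 (7.58% of all stretches), the MEF2 core and the E-box in Tnni1 (1.39% and 8.39%), TATAAA in Tnnt1 (7.58%) and TATATA in Tnnc1 (2.97%). The Myh7 and Tpm3 stretches held none of these letters in this window.

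In skeletal muscle, every member lay far below its other levels in 2 of the 3 estrus libraries. Myh7 was at 69.4, 0.59 and 0.19 FPKM in estrus replicates 1, 2 and 3, and at 247, 73.7 and 55.7 FPKM in the diestrus replicates. Estrus replicates 2 and 3 thus held hardly any RNA of the slow motor, while estrus replicate 1 lay between diestrus replicates 2 and 3. Myl2, the regulatory light chain, was at 244, 6.52 and 20.5 FPKM in estrus and at 762, 253 and 257 FPKM in diestrus. Myl3, the essential light chain, was at 259, 20.6 and 8.81 FPKM in estrus and at 977, 304 and 349.98 FPKM in diestrus. For these light chains the lowest diestrus library was above the highest estrus library, by a narrow margin over estrus replicate 1.

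The thin filament genes were highest in diestrus replicate 1 and low in estrus replicates 2 and 3 as well. Tnnc1, the calcium sensor, was at 127, 0.88 and 0.83 FPKM in estrus and at 435, 133 and 105 FPKM in diestrus. Tnnt1, the tropomyosin-binding subunit, was at 148, 1.90 and 3.15 FPKM in estrus and at 483, 152 and 118 FPKM in diestrus. Tnni1, the inhibitory subunit, was at 56.2, 1.04 and 0.68 FPKM in estrus and at 206, 65.7 and 52.7 FPKM in diestrus. The phases overlapped for all 3 troponin genes, because estrus replicate 1 was above diestrus replicate 3. Tpm3 was at 171, 19.3 and 17.0 FPKM in estrus and at 560, 187 and 155 FPKM in diestrus, with the same overlap, and its lowest library was above the lowest of every other member.

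**Figure D1:**
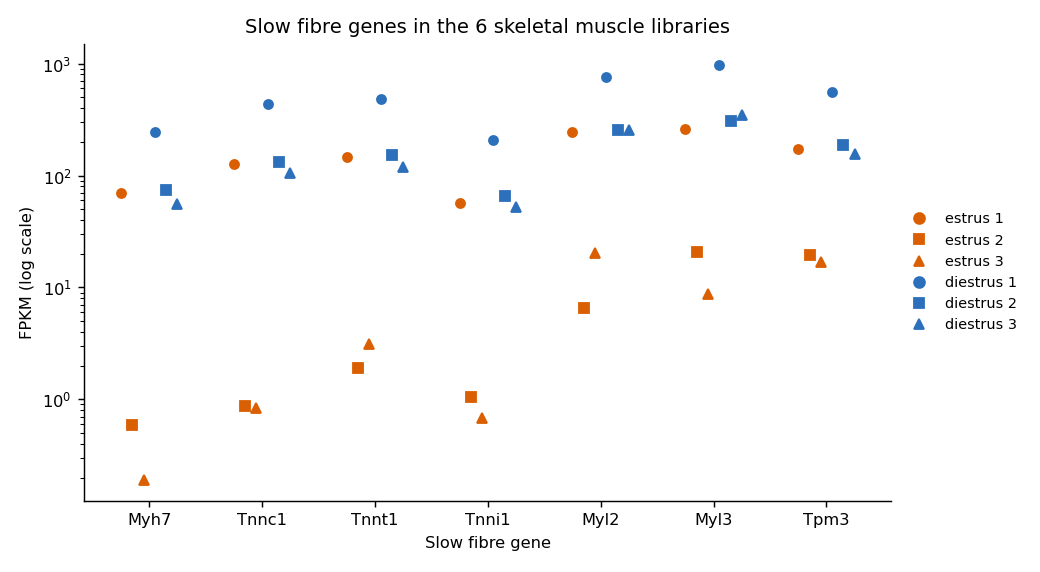
FPKM (log scale) of the 7 slow fibre genes in the 6 skeletal muscle libraries, with 1 symbol for each library, estrus in orange and diestrus in blue. Estrus replicates 2 and 3 lie below the other 4 libraries for every gene, and diestrus replicate 1 lies above all others.

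The fold between libraries varied least between the members for the pairs without a low library. Diestrus replicate 1 was 3.12- to 3.77-fold above estrus replicate 1 over the 7 members, 3.00- to 3.34-fold above diestrus replicate 2 and 2.79-fold (Myl3) to 4.43-fold (Myh7) above diestrus replicate 3. Estrus replicate 1 was 117.5-fold above estrus replicate 2 for Myh7, 145-fold for Tnnc1 and 77.8-fold for Tnnt1, but only 12.6-fold for Myl3 and 8.87-fold for Tpm3. Among the 10680 genes that averaged 1 FPKM or more in this tissue, the members took ranks 1 to 6 and 8 by the spread of log2(FPKM + 1) between the highest and the lowest library. That spread was 4.96 for Tpm3, 7.90 for Tnnc1 and 0.37 for the median gene.

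Within the estrus group, replicate 1 lay nearer to diestrus replicates 2 and 3 than to the other estrus libraries for each of the 7 genes. On a scale of log2(FPKM + 1), where the change of a gene with low values comes out too small, the fitted difference of estrus minus diestrus ran from -4.59 (Tnnc1) to -2.67 (Tpm3), with a median of -3.96 over the 7 members, all of which passed that filter. The median over all tested genes was -0.08. The median of the members ranged from -5.61, without estrus replicate 1, to -3.10, without estrus replicate 3. The phases did not overlap for 2 of the 7 members, Myl2 and Myl3, both lower in estrus, against 21.9% of all tested genes lower in estrus without overlap and 26.2% in either direction. Nothing was read from this share, since the members were chosen on this contrast. In bulk tissue, fewer slow fibres in the piece sampled and less RNA of these genes per fibre cannot be told apart, and the labels name no individual muscle.

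Set against its counterparts, each slow gene was a minor form in every skeletal muscle library. The counterparts were fast isoforms, except that Tpm1 and Tpm2, set against Tpm3, are genes of fibres of any type. The Tpm3 share is therefore not one of slow against fast. Myh7 made up 3.38% of the summed FPKM of Myh7, Myh1, Myh2 and Myh4 in diestrus replicate 1, 0.68% to 0.89% in diestrus replicates 2 and 3 and estrus replicate 1, and 0.0062% and 0.0017% in estrus replicates 2 and 3. Tnnc1 was 0.0061% to 3.74% of troponin C, Tnnt1 0.0078% to 2.27% of slow and fast troponin T and Tnni1 0.0067% to 2.27% of slow and fast troponin I. Myl2 was 0.048% to 6.81% of Myl2 and Mylpf, the fast regulatory light chain. Myl3 was 0.059% to 8.05% of Myl3 and Myl1, the fast essential light chain, and Tpm3 0.080% to 2.69% of Tpm3, Tpm1 and Tpm2. The slow light chains thus took a larger share of their families than the slow troponins in the library where both were highest.

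**Figure D2:**
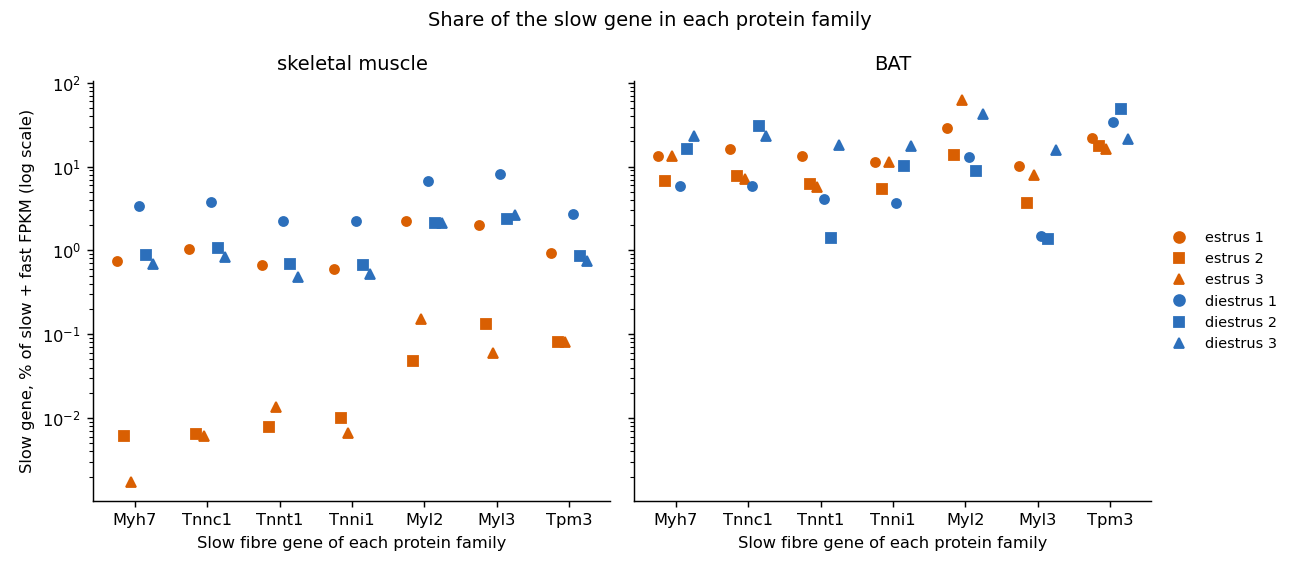
Share of each slow gene, in % (log scale), of the summed FPKM of the slow gene and its counterparts. The 6 skeletal muscle and the 6 brown adipose tissue (BAT) libraries are shown, with 1 symbol for each library. The counterparts are fast isoforms, except that Tpm3 is set against Tpm1 and Tpm2, genes of all fibre types. In skeletal muscle estrus replicates 2 and 3 lie at or below 0.150% for every family.

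Of 28 other genes of the slow programme, 26 were tested in skeletal muscle, and limma called none of them at an adjusted p of at most 0.05 and a log2 difference of at least 1, where it called 0.00936% of all tested genes. The only gene called was Mss51, named here after its values were seen, which was higher in estrus (log2 difference 1.27 ± 0.10 (SE, n = 3 and 3), adjusted p = 0.0294, limma). Its call was lost without the filter, under the replicate block and on leaving out estrus replicate 2 or any of the diestrus replicates (adjusted p from 0.0598 to 0.197, limma). The fitted difference was below 0 for 22 of the 26 slow programme genes and for 7523 of all 10680 tested, the median of the slow programme was -0.76, and 13 had an unadjusted p under 0.05, against 20.8% of all tested genes. Without estrus replicate 1, limma called 15 of the 26, all lower in estrus, and 87 genes in all. On leaving out any other single library it called none of the 26. Estrus replicate 1 was singled out after the values were seen, as the estrus library nearest to diestrus. Nothing about the phases was therefore read from the 15.

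The median difference was -1.27 for slow contractile genes, -1.73 for calcium handling, -0.82 for oxidative metabolism and -0.20 for regulators of the slow programme. Actn2, alpha-actinin of the Z-disc, was at 440, 177 and 152 FPKM in estrus and at 604, 461 and 507 FPKM in diestrus (log2 difference -1.19 ± 0.37, adjusted p = 0.143, limma). Sln, sarcolipin, an inhibitor of the calcium pump, was at 5.32, 1.17 and 0.87 FPKM in estrus and at 26.9, 9.52 and 5.77 FPKM in diestrus (-2.09 ± 0.62, adjusted p = 0.134, limma). Both had non-overlapping phases that did not pass the adjusted threshold. Among genes of oxidative metabolism the phases did not overlap for Mb, the oxygen store myoglobin (-1.42 ± 0.39, adjusted p = 0.119, limma), and Ckmt2, mitochondrial creatine kinase (-0.82 ± 0.21, adjusted p = 0.108, limma). Mb was at 3289, 1654 and 999 FPKM in estrus and at 5628, 4288 and 4301 FPKM in diestrus, so its estrus replicates 2 and 3 lay closer to the other libraries than those of the members.

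Among regulators, Ppargc1a, a coactivator of mitochondrial genes, was at 12.8, 8.18 and 7.88 FPKM in estrus and at 12.9, 22.2 and 19.2 FPKM in diestrus (-0.85 ± 0.23, adjusted p = 0.119, limma). Sox6, a repressor of slow genes in fast fibres, was at 25.9, 29.7 and 31.9 FPKM in estrus and at 25.2, 24.5 and 23.4 FPKM in diestrus (0.25 ± 0.087, adjusted p = 0.173, limma). Neither passed the adjusted threshold.

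All 14 fast fibre genes were tested and none was called. The fitted difference was above 0 for 12, against 3157 of all 10680 tested genes, and the median of the fast genes was 0.22. An unadjusted p under 0.05 by limma was found for 5, against 20.8% of all tested genes. The phases did not overlap for 4, all higher in estrus, against 456 of all 10680 tested genes higher in estrus without overlap. Myh4, the fastest myosin heavy chain, was at 7408, 8756 and 10269 FPKM in estrus and at 5279, 6352 and 6022 FPKM in diestrus (0.57 ± 0.14, adjusted p = 0.108, limma). Pvalb, the calcium buffer parvalbumin, and Casq1, fast calsequestrin, also did not overlap, with differences of 0.39 ± 0.13 and 0.29 ± 0.12 and adjusted p of 0.162 and 0.229 by limma. Myh2, the myosin of fast oxidative fibres, went the other way: it was at 537, 94.5 and 155 FPKM in estrus and at 841, 490 and 537 FPKM in diestrus (-1.60 ± 0.59, adjusted p = 0.186, limma), low in the same 2 libraries as the slow genes.

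Lists of other cells moved with the members in part. The summed level of 4 Schwann cell genes was 80.1, 42.5 and 42.5 FPKM in the estrus replicates and 76.5 to 99.95 FPKM in diestrus, and that of 4 endothelial genes was 74.2, 61.1 and 49.3 FPKM against 79.0 to 83.6 FPKM. The smooth muscle list summed to 94.5, 87.4 and 82.1 FPKM in estrus and to 102 to 113 FPKM in diestrus. The brown adipocyte list summed to 580, 414 and 348 FPKM against 573 to 628 FPKM. Nearly all of that sum was Cox7a1, at 579, 413 and 345 FPKM in estrus, with Ucp1 at 1.61 FPKM or less in every library. Cox7a1 was also at 1495 to 1991 FPKM in heart, so this list does not stand for brown adipocytes here. The macrophage list, at 43.1, 26.6 and 33.9 FPKM against 33.7 to 54.0 FPKM, and the adipocyte list, at 654, 532 and 263 FPKM against 327 to 623 FPKM, overlapped between phases. So did the Schwann cell and brown adipocyte lists, in which estrus replicate 1 was above the lowest diestrus library. Of these 6 lists, 4 were lowest in estrus replicates 2 and 3 (Schwann cell, endothelial, smooth muscle and brown adipocyte). The cardiomyocyte list summed to 498, 1399 and 1521 FPKM in estrus and to 786 to 1011 FPKM in diestrus, with 3 of its 10 genes averaging 1 FPKM or more and nearly all of it Actc1, and was highest in the libraries where the members were lowest. Myl7, the atrial light chain, was listed at 0 in all 6 libraries and Myh6 lay at 0.05 to 0.87 FPKM. The part of these other cell types in the result was not tested.

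The genes with a pattern most like that of the members over the 6 skeletal muscle libraries, by Pearson's r with the mean log2(FPKM + 1) of the 7, were Pdlim1 (0.997), Fxyd6 (0.995), Casq2 (0.994), Ldhb (0.994) and Khdrbs3 (0.994), of 737 genes ranked. The 737 were the genes that averaged 1 FPKM or more and spread by at least 1 in log2(FPKM + 1) over these libraries. These r describe 6 libraries that fall into 2 low and 4 higher ones. Casq2, the calsequestrin of slow and cardiac muscle, was at 28.8, 7.81 and 8.07 FPKM in estrus and at 51.7, 26.3 and 27.7 FPKM in diestrus. Ldhb, the lactate dehydrogenase subunit of oxidative muscle, was at 223, 50.4 and 48.7 FPKM in estrus and at 307, 218 and 232 FPKM in diestrus. Both kept a higher floor in estrus replicates 2 and 3 than Myh7 or the troponins. Over all 90 libraries the closest genes were Lmod2 (0.898), Myoz2 (0.888), Mb (0.887), Yipf7 (0.881) and Cox6a2 (0.880), of 15219 ranked, where the points share their tissues.

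In heart, the members split into abundant ventricular isoforms and minor ones, and the phases overlapped for all 7 (they did not for 11.7% of all tested genes). Myl2 was the highest member, at 15736, 13219 and 12166 FPKM in estrus and at 13999, 13626 and 14613 FPKM in diestrus. Myl3 was at 6829, 6178 and 5845 FPKM in estrus and at 6394, 6749 and 7244 FPKM in diestrus. Tnnc1 was at 4013, 3473 and 3437 FPKM in estrus and at 3767, 3653 and 3948 FPKM in diestrus. These 3 genes stayed within a narrow band in all 6 hearts, in contrast to the spread in skeletal muscle.

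Myh7 was at 37.5, 25.7 and 35.6 FPKM in estrus and at 29.9, 29.1 and 35.5 FPKM in diestrus, 0.45% to 0.92% of the summed FPKM of Myh7 and Myh6, the alpha myosin of the adult mouse ventricle. That share is uncertain, since the coding sequences of Myh7 and Myh6 were identical at 91.7% of aligned bases with an unbroken identical run of 245 bases, and reads could be split between them. Against the fast counterparts the identity was 77.6% to 78.0% for myosin. Tnnt1, at 16.8 to 26.5 FPKM, was 0.22% to 0.35% of Tnnt1 and Tnnt2. Tnni1, at 0.09 to 1.23 FPKM, was at most 0.019% of Tnni1 and Tnni3 and did not pass the filter. Tpm3 lay at 50.8 to 60.3 FPKM. The fitted differences of the 6 members that passed ran from -0.21 (Tnnt1) to 0.05 (Myh7), with a median of -0.05, where the median over all tested genes was 0.02. No gene was called in heart, 0% of 11592, and 707 (6.1%) had an unadjusted p under 0.05 by limma. Of the slow programme, 25 genes were tested, none was called and 3 had an unadjusted p under 0.05. Prox1, at 21.8, 18.9 and 12.4 FPKM in estrus and at 12.1, 11.5 and 9.77 FPKM in diestrus, Tead1 and Ldhb were its genes without overlap, each with an adjusted p of 0.79 or more by limma. Estrus replicate 3 held atrial genes that the other hearts lacked, with Sln at 334 FPKM against 0.35 to 2.72 FPKM, and it had the lowest Myl2, Myl3 and Tnnc1. Without this library the median difference of the members was -0.02.

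**Figure D3:**
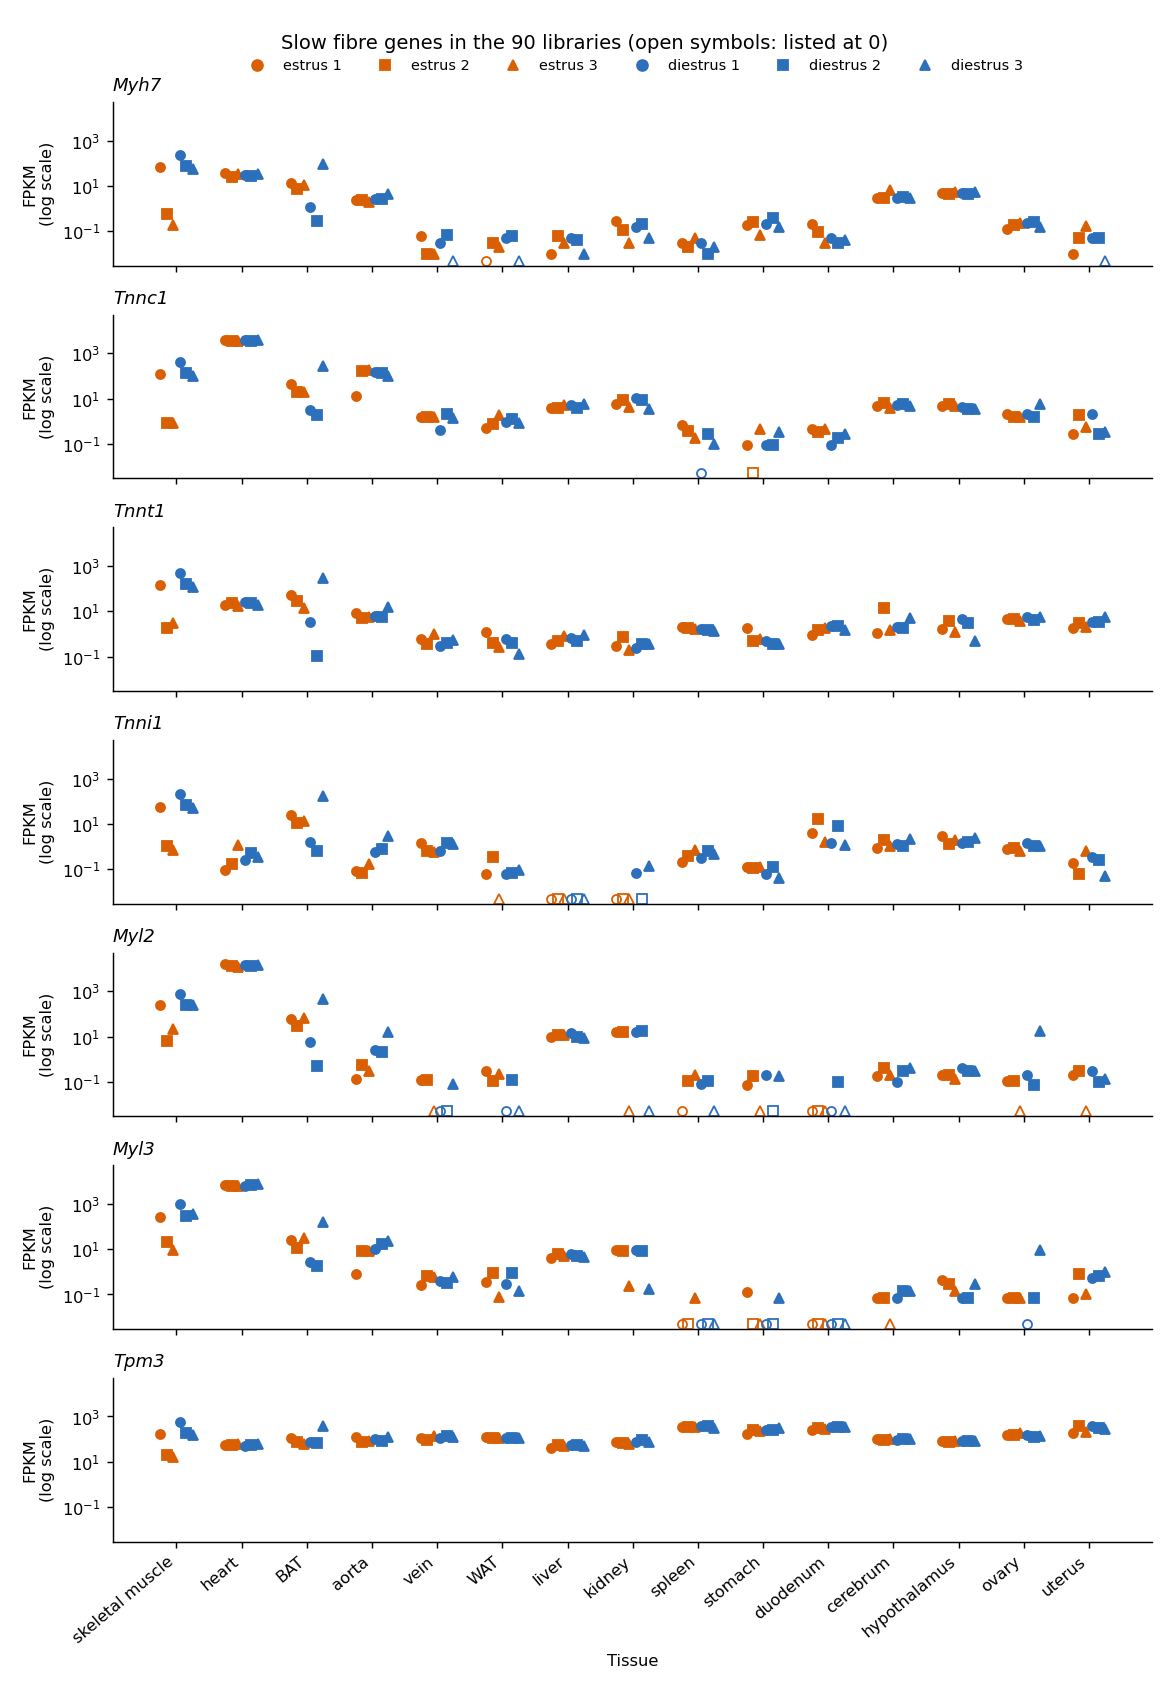
FPKM (log scale) of each slow fibre gene in the 6 libraries of each of 15 tissues, estrus in orange and diestrus in blue, with open symbols for values listed at 0. Heart is highest for Tnnc1, Myl2 and Myl3, skeletal muscle has the highest mean for Myh7, Tnnt1 and Tnni1, and Tpm3 is present in every library.

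In brown adipose tissue (BAT) all 7 members were above 0 in each of the 6 libraries, with diestrus replicate 3 far above the rest. Myh7 was at 13.9, 7.46 and 11.0 FPKM in estrus and at 1.16, 0.29 and 93.7 FPKM in diestrus. Myl2 was at 59.2, 29.5 and 66.6 FPKM in estrus and at 5.65, 0.52 and 452 FPKM in diestrus. Myl3 was at 26.3, 11.2 and 30.7 FPKM in estrus and at 2.69, 1.79 and 165 FPKM in diestrus. Diestrus replicates 1 and 2 were the lowest libraries for all 3, so the diestrus group held both ends of the range.

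Tnnc1 was at 46.6, 18.9 and 19.9 FPKM in estrus and at 3.16, 1.85 and 269.9 FPKM in diestrus. Tnnt1 was at 53.8, 29.0 and 13.8 FPKM in estrus and at 3.29, 0.11 and 301 FPKM in diestrus. Tnni1 was at 24.5, 11.0 and 13.2 FPKM in estrus and at 1.60, 0.61 and 163 FPKM in diestrus. The 3 troponin genes had the same highest and lowest libraries as the myosin genes. Tpm3 was at 110.5, 78.3 and 60.1 FPKM in estrus and at 76.6, 66.8 and 378 FPKM in diestrus, so its low libraries lay near its levels in other tissues.

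The size of the phase difference in BAT was decided by single libraries. Mean FPKM was higher in diestrus for all 7 members, while the fitted log2 difference was above 0 for 6 of them, with a median of 0.88 (all tested genes -0.12). The median was 2.97 without diestrus replicate 3 and -0.31 without diestrus replicate 2. The phases did not overlap for 0 of 7 members, against 30.1% of all 11104 tested genes, from which nothing was read. Estrus replicate 3 listed 12048 genes at 0, against 2404 to 4820 in the other 89 libraries, so a value at or near 0 in it says little, and the median was 0.99 without it. No gene was called, 0% of those tested, with 1425 (12.8%) at an unadjusted p under 0.05 by limma.

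The members moved with fast fibre genes in BAT. The 14 fast genes summed to 1665, 1870 and 1411 FPKM in estrus and to 498, 166 and 6289 FPKM in diestrus, and all 14 averaged 1 FPKM or more. In diestrus replicate 2 most of that sum was Myl1, at 131 FPKM. The 10 cardiomyocyte genes summed to at most 13.3 FPKM, in diestrus replicate 3, and Nppb was listed at 0 in all 6 libraries. Brown adipocyte genes such as Ucp1, the uncoupling protein, summed to 7111 to 9524 FPKM in every library. The part of skeletal muscle fibres in the BAT values was not tested. The mean share of each member in its family was larger than in skeletal muscle. Myh7 was 5.80% to 23.1% of Myh7 and the fast heavy chains and Tnnc1 5.87% to 30.8% of troponin C. Tnni1 was 3.71% to 17.7% of slow and fast troponin I, and each of these was above its highest share in skeletal muscle. Myl2 (8.84% to 62.1%) and Tpm3 (16.0% to 48.3%) were above theirs too. The 30.8% of Tnnc1 came from diestrus replicate 2, with 1.85 FPKM of Tnnc1 beside 4.15 FPKM of Tnnc2. The next highest Tnnc1 share was 23.1%. The 62.1% came from estrus replicate 3, the library with 12048 genes listed at 0, and the next highest Myl2 share was 41.9%. The Tpm3 share was highest in diestrus replicates 1 and 2, at 33.6% and 48.3%. There Tpm3 was at 76.6 and 66.8 FPKM, beside 152 and 71.6 FPKM of Tpm1 and Tpm2, so its share there followed the low Tpm1 and Tpm2. The shares of Tnnt1 (1.40% to 18.2%) and Myl3 (1.35% to 15.6%) overlapped with those in skeletal muscle. For Tnnt1 this was diestrus replicate 2 alone, with 0.11 FPKM of Tnnt1 beside 7.72 FPKM of Tnnt3. For Myl3 it was estrus replicates 2 and 3 and diestrus replicates 1 and 2. In these diestrus libraries Myl1 was at 180 and 131 FPKM, where Tnnc2, another fast gene, was at 50.7 and 4.15 FPKM. The low Myl3 shares there thus rest on Myl1. In the slow programme, 26 genes were tested, none was called and 3 had an unadjusted p under 0.05. Ppargc1a was at 70.7, 19.5 and 27.5 FPKM in estrus and at 18.5, 9.66 and 14.5 FPKM in diestrus (1.23 ± 0.49, adjusted p = 0.375, limma), and Sox6, Myl6b and Ldhb were the other genes without overlap.

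**Figure D4:**
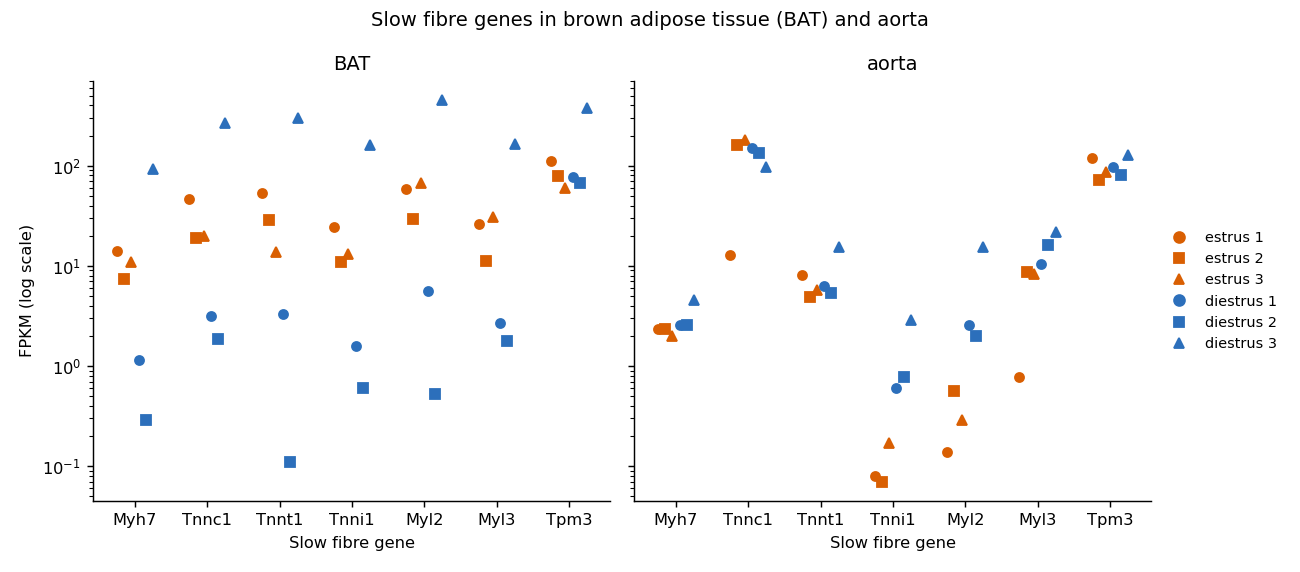
FPKM (log scale) of the 7 slow fibre genes in the 6 brown adipose tissue (BAT) libraries and the 6 aorta libraries, with 1 symbol for each library. In BAT diestrus replicate 3 is highest for every gene. In aorta estrus replicate 1 stands apart for Tnnc1, at 12.7 FPKM against 97.4 to 182 FPKM.

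In aorta the members did not move together. Tnnc1 was at 12.7, 159.8 and 182 FPKM in estrus and at 149, 135 and 97.4 FPKM in diestrus, in the same order of libraries as the cardiomyocyte list, which summed to 419, 5486 and 6074 FPKM and to 4444, 4438 and 3018 FPKM. Myl2 was at 0.14, 0.56 and 0.29 FPKM in estrus and at 2.57, 2.01 and 15.5 FPKM in diestrus. Myl3 was at 0.77, 8.66 and 8.24 FPKM in estrus and at 10.5, 16.2 and 22.0 FPKM in diestrus. Both light chains were lower in every estrus library than in any diestrus library, and so were Myh7, at 2.01 to 2.33 FPKM against 2.55 to 4.53 FPKM, and Tnni1, at 0.07 to 0.17 FPKM against 0.60 to 2.88 FPKM.

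The fitted differences of the 6 members that passed the filter, without Tnni1, ran from -2.09 (Myl2) to -0.14 (Tpm3), with a median of -0.57 beside -0.05 over all tested genes. The phases did not overlap for 3 of these 6, against 9.54% of all 12553 tested genes lower in estrus without overlap and 11.9% in either direction, from which nothing was read. Diestrus replicate 3 was highest for 6 of the 7 members and for the fast fibre list, which summed to 488 FPKM there and to 122 to 271 FPKM elsewhere. Most of that sum was Myl1 in estrus replicates 2 and 3 (183 and 252 FPKM) and diestrus replicates 1 and 2 (168 and 162 FPKM). In these libraries Tnnc2 was at 0.12, 1.66, 4.08 and 16.6 FPKM, against 71.4 FPKM in diestrus replicate 3. The sum is thus mainly that of 1 gene there. The Schwann cell and macrophage lists were highest in that library too, at 475 FPKM against 88.7 to 233 FPKM and at 427 FPKM against 49.96 to 201 FPKM. The endothelial list did not overlap between the phases, at 170 to 225 FPKM in estrus and 269 to 285 FPKM in diestrus. Estrus replicate 1 was the only aorta library with 20166 FPKM of summed smooth muscle genes, against 2097 to 3218 FPKM, and it had the least adipocyte RNA, at 2889 FPKM against 16034 to 17834 FPKM. Without it the Tnnc1 difference turned from -0.77 to 0.44 and the median of the members was -0.46. The ratio of the members to heart differed between genes: at the median library Tnnc1 was at 3.83% of its mean in heart, beside Myh6 at 10.5% and Actc1 at 8.60%, whereas Myl3 was at 0.15% and Myl2 at 0.0092%. The atrial genes Myl4, Myl7 and Sln lay at 69.3 to 1050, 61.4 to 1116 and 39.4 to 561 FPKM in aorta, each lowest in estrus replicate 1. In heart they were at 812, 974 and 334 FPKM in estrus replicate 3 and at 6.95 FPKM or less in the other 5 libraries, so no share of a heart mean is given for them. No gene was called in aorta, 0% of those tested, with 390 (3.11%) at an unadjusted p under 0.05 by limma. Of 25 slow programme genes tested 1 was under that limit, and Hspb6, Cryab, Sox6, the fast gene Myh2 and Tpm1, a tropomyosin of all fibres, did not overlap between phases, with an adjusted p of 0.933 each by limma. The part of atrial tissue, fat, muscle and the other listed cell types in these values was not tested.

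Outside these 4 tissues the 3 genes shared with the ventricle appeared together in a set of liver, kidney and ovary libraries. Tnnc1 also lay at 3.93 to 6.46 FPKM in cerebrum and at 3.51 to 5.57 FPKM in hypothalamus, where Myl2 and Myl3 were at 0.43 FPKM or less. Myl2 was at 8.39 to 13.9 FPKM in the 6 liver libraries and at 15.8, 16.1, 15.8 and 16.7 FPKM in kidney estrus and diestrus replicates 1 and 2, and was listed at 0 in kidney replicate 3 of both phases. In ovary it was at 18.0 FPKM in diestrus replicate 3 and at 0.20 FPKM or less in the other 5 libraries. Myl3 had the same pattern, at 4.21 to 6.27 FPKM in liver, 8.28 to 9.59 FPKM in the same 4 kidney libraries, 0.17 and 0.23 FPKM in the other kidneys, and 8.73 FPKM in the ovary library where Myl2 was high.

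Relative to heart, several cardiac genes lay at like levels in these libraries and others did not. In liver Myl2 stood at 0.060% to 0.10% of its heart mean, Myl3 at 0.064% to 0.096%, Tnnc1 at 0.10% to 0.15%, Myh6 at 0.073% to 0.12% and Actc1 at 0.074% to 0.093%. In kidney replicates 1 and 2 Myl2 was at 0.11% to 0.12% and Mb at 0.11% to 0.13%, but Myh6 at 0.059% to 0.066%. In ovary diestrus replicate 3 Myl2 was at 0.13%, Myl3 at 0.13%, Myh6 at 0.12%, Actc1 at 0.12% and Mb at 0.12%, whereas Tnnc1 was at 0.15%, Pln at 0.16%, Tnnt2 at 0.20% and Tnni3 at 1.58%. Tnni3 was at 1.00% to 2.19% over the 6 ovaries. Tnnc1 kept 3.43 and 4.26 FPKM in the kidney libraries without Myl2, so part of its level there did not go with the light chains. The source of these transcripts was not tested.

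**Figure D5:**
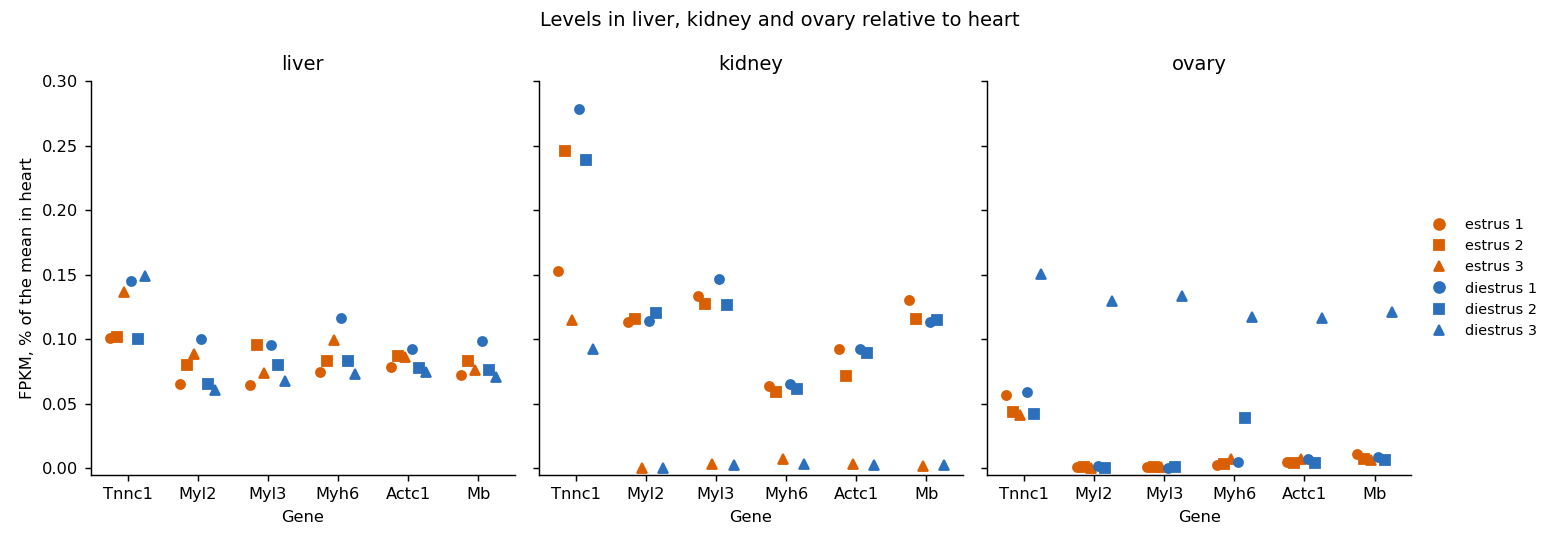
Levels of 3 slow fibre genes and 3 other cardiac genes in liver, kidney and ovary as % of the mean FPKM of the gene in heart, with 1 symbol for each library. All 6 genes are near or above 0.06% in liver and in kidney replicates 1 and 2, and in ovary Myl2, Myl3, Actc1 and Mb are near 0.12% in diestrus replicate 3 and near 0 in the other 5 libraries.

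Over the 15 tissues the order of levels differed between members. Myh7 had its highest mean in skeletal muscle (74.4 ± 90.5 FPKM, SD, n = 6), then heart (32.2 ± 4.6) and BAT (21.3 ± 35.9), whose libraries overlapped, and it was next in hypothalamus (4.90 ± 0.40) and cerebrum (3.61 ± 1.41). Tnnc1, Myl2 and Myl3 were highest in heart, 27.8-, 54.0- and 20.4-fold above their means in skeletal muscle, with no overlap between the libraries of these tissues. Tnnt1 followed skeletal muscle (151 ± 176) with BAT (66.9 ± 117) and heart (21.2 ± 3.6), and its libraries did not overlap between heart and aorta, the next tissue.

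Tnni1 lay mainly in skeletal muscle and BAT (63.8 ± 75.4 and 35.6 ± 62.8 FPKM), since its mean was 0.44 FPKM in heart and it was listed at 0 in all 6 livers. In duodenum, the next tissue, it ran from 1.12 to 16.4 FPKM, with estrus replicate 2 and diestrus replicate 2 (8.36 FPKM) above the others. Tpm3 was highest in spleen (349.5 ± 20.2 FPKM), duodenum (308 ± 29.8), uterus (291 ± 90.7) and stomach (246 ± 48.2), whose libraries overlapped with those of their neighbours in this order, and lowest in liver (50.7 ± 6.5) and heart (55.2 ± 3.7). Its 2 low skeletal muscle libraries, at 19.3 and 17.0 FPKM, were below each of the other 88 libraries, of which the lowest was a liver library at 39.1 FPKM.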

How the data were processed

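The authors removed low-quality and adaptor reads with SOAPnuke, aligned the rest with Bowtie2 2.2.5 to GRCm38 and estimated abundance with RSEM 1.2.8, as their methods and processing notes say. They deposited FPKM values for 20414 genes in 90 libraries, without counts. The methods give 1 approximate read number for all samples, the files give no depth for single libraries, and no interval for counting error is given. RSEM assigns reads shared by similar genes by estimation. The 7 members and the gene lists were chosen with earlier results of these data known.

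Groups came from the sample labels. In skeletal muscle, heart, aorta and BAT, genes averaging 1 FPKM or more in the 6 libraries were fitted as log2(FPKM + 1) with limma 3.58.1 (R 4.3.3, intensity trend, no covariates), with Benjamini-Hochberg adjustment over all tested genes of the tissue. Calls needed an adjusted p of at most 0.05 and an absolute log2 difference of at least 1. The fit was run on simulated data with known changes, drawn for each gene independently. That run does not show how the fit behaves where many genes move together in a single library. Other tissues were described by levels. Shares divide the FPKM of a slow gene by the sum over it and its counterparts. The study names 3 mice per phase, and p-values measure the spread between these libraries. Genes were named by a rule: the members, their counterparts, up to 3 genes of each list with the largest difference among those without overlap, and the 5 genes most like the members. Alternatives were a pseudocount of 0.1, no filter, median-of-ratios scaling, a fit of all 90 libraries, a replicate block, no fold limit, rescaling to equal summed FPKM and leaving out each library. Values were computed with Python 3.11.15, numpy 2.4.6 and pandas 2.3.3, and plotted with matplotlib 3.10.9.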

Additional observations from a re-analysis of the deposited data

How the results depend on the processing

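The fitted differences of the members kept their direction in skeletal muscle under every alternative run, with a median from -4.38 at a pseudocount of 0.1 to -3.88 with median-of-ratios scaling. Leaving out 1 library moved that median between -5.61 and -3.10 in skeletal muscle, -0.14 and -0.02 in heart, -0.88 and -0.46 in aorta, and -0.31 and 2.97 in BAT, where its sign turned without diestrus replicate 2. Single members changed sign when 1 library was left out: Myh7, Myl2 and Tpm3 in heart, Tnnc1, Tnnt1 and Tpm3 in aorta, and all 7 in BAT. The Myl2 difference in aorta was -3.49 at a pseudocount of 0.1.

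Counts of called genes depended on the fit. In skeletal muscle the 1 gene called became 0 without a filter, 20 in a fit of all 90 libraries, 2 without the fold limit (Mss51 and Mad2l1bp), and 0 to 87 when 1 library was left out: 87 without estrus replicate 1, 2 without estrus replicate 2 (Bcl6 and Gm2573), 14 without estrus replicate 3, 1 without diestrus replicate 2 (Pfkfb3 in place of Mss51), and 0 on leaving out diestrus replicate 1 or diestrus replicate 3. The replicate block gave 3 genes (Cish, Sln and Tnmd), of which Sln is 1 of the slow programme, and 1 gene in heart (Ucp3). The numbers were not taken as pairs in the main fit. Same-numbered libraries deviated together with r of 0.109, 0.185 and 0.045 in skeletal muscle and between -0.047 and 0.23 in heart, aorta and BAT. These r do not show that the numbers share nothing. Some genes elsewhere followed the number in both phases, such as Myl2 in kidney. In ovary Tnnc2 was at 6.34, 4.28 and 0.09 FPKM in estrus and at 4.38, 3.87 and 0 FPKM in diestrus. Myl2 in ovary did not, being high in diestrus replicate 3 alone. What same-numbered libraries share was not tested. The fit of all 90 libraries called 106 genes in aorta and 997 in BAT, and 1 slow programme gene each in skeletal muscle (Atp2a2) and BAT (Ppargc1a). The slow programme count when 1 library was left out ran from 0 to 15 in skeletal muscle. Leaving out 1 library gave 0 to 1 genes in heart (Gm40363, without estrus replicate 2) and 0 to 1 in aorta (Upk3b, without estrus replicate 1). Genes named here for these counts were chosen after their values were seen.

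Of the 7 members, 6 had their highest mean in heart or skeletal muscle, also after rescaling. The mean share of Myh7 among skeletal muscle heavy chains, 0.95%, ran from 0.47% without diestrus replicate 1 to 1.14%. The files hold no counts and no depth of single libraries, so values near 0 in a library do not show that a gene was absent.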
